A study of Mus musculus with 130 samples.

Results

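The integrated stress response is the pathway by which a cell lowers general protein synthesis and turns on a defined set of genes when amino acids run short, proteins misfold, heme is lacking or mitochondria fail. Kinases that sense these conditions (among them EIF2AK4, also called GCN2, which senses uncharged tRNA, EIF2AK3 or PERK in the endoplasmic reticulum, EIF2AK1 or HRI, which is held off by heme, and EIF2AK2 or PKR, which senses double-stranded RNA) phosphorylate the translation factor eIF2, and the transcription factor ATF4 is then made more efficiently from its mRNA. ATF4 acts to a large extent at the level of translation, so its mRNA is only one readout of the pathway. The 10 genes described here were taken by symbol and matched to Ensembl identifiers. They are the transcription factors Atf3, Atf4, Atf5 and Ddit3 (CHOP), the pseudokinase gene Trib3, the enzyme genes Chac1 and Asns, the secreted factors Fgf21 and Gdf15, and the stress sensor Sesn2. All 10 of 10 were found among the 35274 genes of the diet tables and the 35711 genes of the strain tables, and all 10 passed the filter on low counts in both.

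The RNA came from livers of mice labelled male, in 130 libraries. In the library labelled BXD65/RwwJ the Y-linked genes summed to 3.93 CPM, against 120 CPM or more in every other panel library, which goes against its male label. The 4 Y-linked genes summed were Ddx3y, Uty, Eif2s3y and Kdm5d. In a diet study, 15 C57BL/6J mice ate 1 of 5 diets, with 3 mice per diet. These were a diet with 50 ppm iron, one with 500 ppm iron, chow, one with 2% carbonyl iron (20000 ppm), and one with the same 2% carbonyl iron and cellulose as the named fiber source. The 3 libraries with cellulose are listed in the series after all the other libraries and apart from them. If they were prepared apart, that and the diet cannot be told apart. In a strain panel, 114 inbred and recombinant inbred strains had chow for 4 weeks and the 2% iron diet for 6 weeks. The panel held 56 BXD strains (from crosses of C57BL/6J and DBA/2J), 20 AXB/BXA strains (C57BL/6J and A/J), 4 BXH strains, 3 CXB strains and 31 other inbred strains. The label BXD24/TyJ-Cep290<rd16>/J names the allele Cep290<rd16>, and that strain was kept with the BXD strains. Each strain was 1 mouse except 129X1/SvJ with 2, and all strains ate the iron-rich diet, so the panel shows differences between strains on iron and not a response to iron. The labels give neither ages nor the time on each diet in the diet study, and nothing in them says whether the 3 mice of a diet shared a cage, so p-values measure the spread between these samples.

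The diet libraries held between 10.4 M and 20.4 M counts each, and those of the panel between 9.41 M and 20.6 M. Hepatocyte markers were summed to between 78423 and 98990 CPM (counts scaled per M counts of the library, with TMM factors) in every diet library, as the label liver implies. Macrophage markers were higher on the iron-rich diets: 9 of 10 rose on 2% iron and 10 of 10 on 2% iron with cellulose against 50 ppm. Over all genes, 15.7% changed in either direction on 2% iron and 15.4% rose with cellulose. The summed level of the macrophage markers was 113 to 185.8 CPM on 50 ppm, 432 to 472 CPM on 2% iron and 438 to 643 CPM on 2% iron with cellulose. The share of macrophages in the values of the 10 genes was not tested. In bulk tissue, fewer cells of a type and less RNA per cell cannot be told apart.

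Genes of the response often carry a short composite element, the C/EBP-ATF response element, to which ATF4 binds with a C/EBP partner. Its core was searched as TGATGNAA on both strands in windows of 300 bases (250 before to 50 after each gene start; RefSeq, build GRCm38.p6), and 3.97% of the 32851 windows in the reference held it. Of the 10 genes, 5 had a match. The stretches around the 4 matches upstream of the start are shown because Asns and Atf3 had the largest changes of the 10 on 2% iron with cellulose, with Chac1 and Fgf21 beside them. Each is written 5′ to 3′ along the gene's own strand with the match in capitals:

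Asns: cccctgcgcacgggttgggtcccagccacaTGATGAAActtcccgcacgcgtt
Atf3: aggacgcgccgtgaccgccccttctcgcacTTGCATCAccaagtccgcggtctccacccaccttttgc
Chac1: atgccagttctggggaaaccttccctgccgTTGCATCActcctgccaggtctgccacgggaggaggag
Fgf21: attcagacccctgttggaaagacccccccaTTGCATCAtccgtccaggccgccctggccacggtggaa

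These lie at chr6:7693210-7693262 (minus strand), chr1:191183406-191183473 (minus), chr2:119351019-119351086 (plus) and chr7:45615592-45615659 (minus). The first base of the match is 23 bases before the start in Asns, 110 in Atf3 and 139 in Fgf21, and it lies farther upstream in Chac1. Positions count from the RefSeq starts. Those of Atf3, Asns and, by a short distance, Chac1 lie inside the longer GENCODE gene spans given for these genes, not at their ends. In Asns the match reads in the direction of the gene, and in the other 3 it is on the opposite strand. In Trib3 a match lies at bases 15 to 22 after the start, again on the opposite strand. No match was found in the windows of Atf4, Atf5, Ddit3, Gdf15 and Sesn2, which says only that these letters are not in these windows. Of the 5 genes with a match, Asns, Atf3 and Trib3 rose with cellulose against 50 ppm, and of the 5 without one Atf4, Gdf15 and Sesn2 did.

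In the GENCODE M21 annotation of GRCm38, Atf3 (ENSMUSG00000026628) lies at chr1:191170296-191218039, Atf4 (ENSMUSG00000042406) at chr15:80255184-80257541, Atf5 (ENSMUSG00000038539) at chr7:44812256-44816658 and Ddit3 (ENSMUSG00000025408) at chr10:127290774-127296288. Chac1 (ENSMUSG00000027313) lies at chr2:119351229-119354381, Trib3 (ENSMUSG00000032715) at chr2:152337422-152344032, and Asns (ENSMUSG00000029752) at chr6:7675169-7693254. Fgf21 (ENSMUSG00000030827) lies at chr7:45613886-45615490, Gdf15 (ENSMUSG00000038508) at chr8:70629393-70632456 and Sesn2 (ENSMUSG00000028893) at chr4:132492032-132510501. Ddit3 overlaps Mars, Atf5 overlaps Nup62 and Il4i1, Atf3 overlaps the short RNA gene Gm24748, and Sesn2 overlaps Gm12981. The sources used here do not say whether strand was used in counting, so reads shared by overlapping genes cannot be assigned with certainty. Ddit3 has another Ensembl entry in the strain tables, which held 0 counts in all 115 libraries.

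Per length and depth, in TPM (transcripts scaled per M transcripts), the 10 genes spanned a wide range. On 50 ppm, Atf5 was at 279 ± 21.4 TPM (SD, n = 3) and Atf4 at 35.3 ± 4.51 TPM. Fgf21 followed at 10.2 ± 3.86 TPM. The next 3 did not differ beyond their spread: Ddit3 was at 5.82 ± 0.366, Gdf15 at 5.4 ± 1.56 and Trib3 at 5.05 ± 1.33 TPM. Sesn2 followed at 3.16 ± 0.562 TPM, Asns at 1.44 ± 0.721 and Chac1 at 1.37 ± 0.319, the last pair again within their spread, and Atf3 was lowest at 0.200 ± 0.130 TPM. Atf3 rested on 1, 5 and 3 counts in the 50 ppm mice, so counting error alone is large for it.

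The question of the first comparisons was which of these genes differ in C57BL/6J liver between an iron-rich diet and the 50 ppm diet. On 2% iron with cellulose, 6 of the 10 genes rose against 50 ppm and none fell, against 29.7% of all 13560 genes tested, of which 15.4% rose and 14.3% fell. The 6 were Atf3, Asns, Gdf15, Trib3, Sesn2 and Atf4. On 2% iron without the named fiber source, Sesn2 alone of the 10 passed the test against 50 ppm, where 15.7% of all genes did. The median log2 change of the 10 genes was 0.73 with cellulose and 0.04 without, beside medians over all genes of 0.0046 and 0.0092. Without replicate 1 on cellulose, 3 of the 10 passed there (Atf3, Asns and Sesn2), and without any 1 of the mice on 50 ppm, 4 did. Both comparisons use the same 3 mice on 50 ppm.

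**Figure D1:**
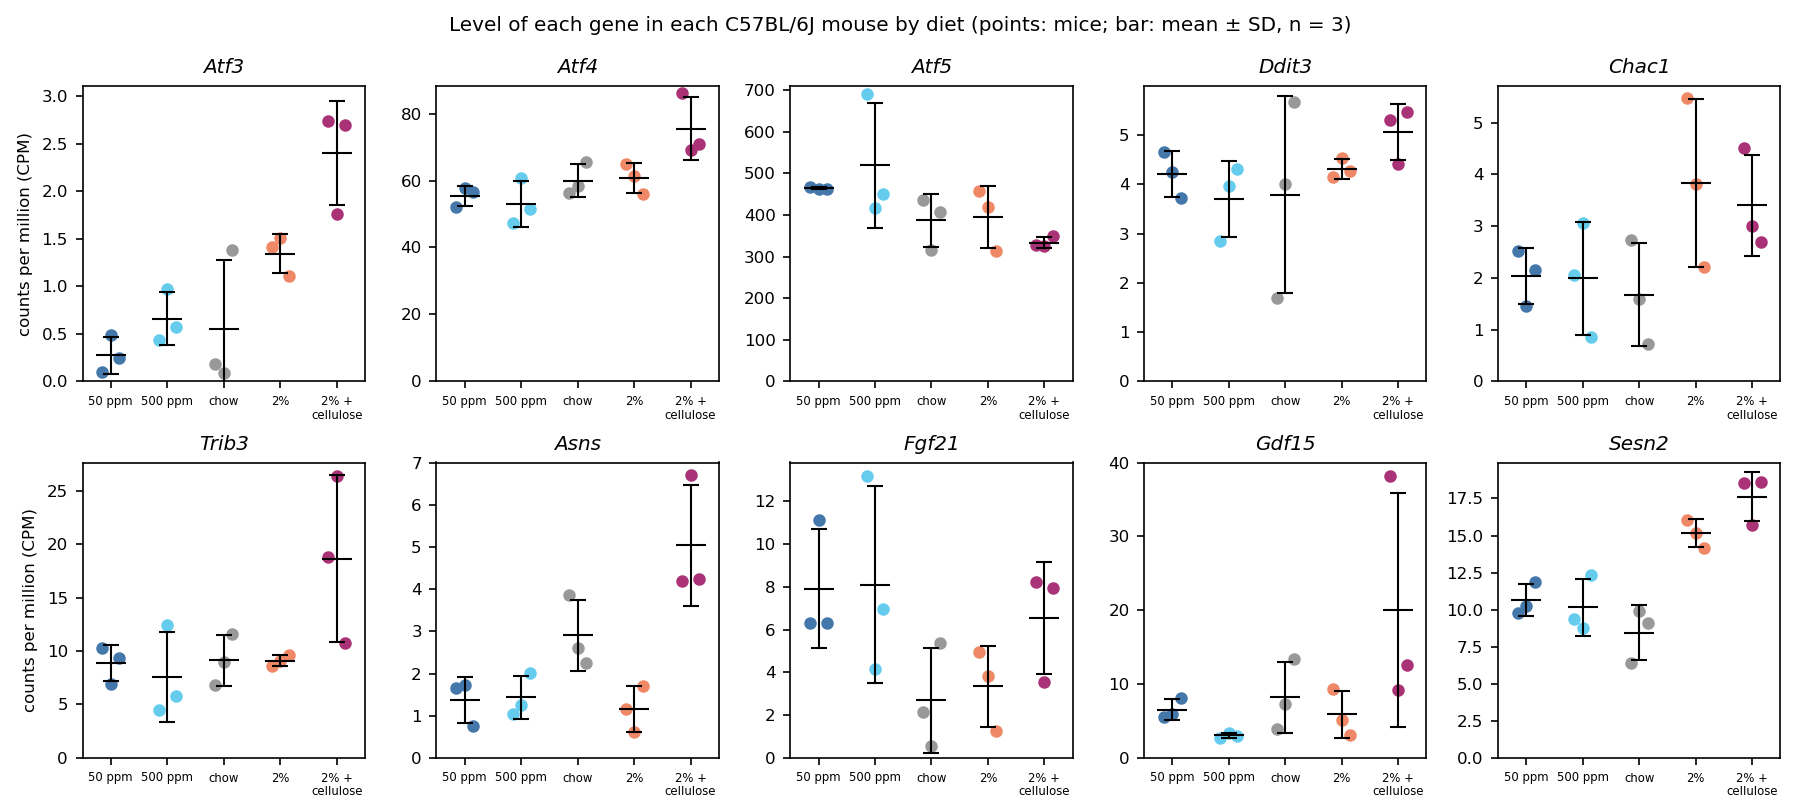
Level in CPM (linear axes from 0) of each gene in each of the 15 C57BL/6J mice by diet, with points for mice and bars for the mean ± SD of 3 mice. Asns on 2% iron with cellulose lies at 4.19 to 6.70 CPM, above the 3.85 CPM of the highest mouse on any other diet, while Ddit3 overlaps on all diets.

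Atf3 is an early-response repressor that ATF4 and other stress signals induce. It was at 2.74, 1.76 and 2.70 CPM in the 3 mice on 2% iron with cellulose and at 0.0969, 0.483 and 0.249 CPM on 50 ppm. The groups did not overlap, and the log2 change was 3.08 ± 0.70 (SE; adjusted p = 0.00541, edgeR quasi-likelihood test). On 2% iron it was at 1.41, 1.51 and 1.11 CPM, also above every 50 ppm mouse, with a log2 change of 2.24 ± 0.73 that missed the threshold (adjusted p = 0.0528). On 500 ppm it was at 0.430, 0.969 and 0.575 CPM. On chow, 2 mice were at 0.188 and 0.0932 CPM and the third at 1.38 CPM, so a single chow mouse reached the level of the 2% iron group. Of the 12 other settings tried that could test Atf3 with cellulose, 12 kept its call, with log2 changes from 1.33 on the log2(TPM + 1) scale, which understates changes of low genes, to 3.68 without replicate 2 of 50 ppm.

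Asns makes asparagine and is a standard target of ATF4. In CPM it was, like Atf3, higher in every mouse on 2% iron with cellulose than in every mouse on any other diet. Its levels there were 4.19, 6.70 and 4.24 CPM, against 1.65, 1.74 and 0.746 CPM on 50 ppm (log2 change 1.88 ± 0.39, edgeR adjusted p = 0.00329). On 2% iron without the named fiber source they were 1.16, 0.622 and 1.71 CPM, within the range of 50 ppm (log2 change -0.22 ± 0.44). On 500 ppm the levels were 1.03, 1.26 and 2.01 CPM and on chow 3.85, 2.61 and 2.25 CPM. Asns was thus lower on 2% iron than on chow (log2 change -1.30 ± 0.41, edgeR adjusted p = 0.0329). That call did not hold in TPM: the means were 0.928 ± 0.350 on 2% iron and 2.08 ± 0.968 TPM on chow, with log2(TPM + 1) lower by 0.64 (coded -0.64, limma adjusted p = 0.154), and it was lost without replicate 1 of chow (log2 change -1.05, adjusted p = 0.122), without replicate 2 of chow (-1.37, 0.0590) and without replicate 1 (-1.30, 0.0826) or replicate 2 of 2% iron (-1.01, 0.115). The call with cellulose against 50 ppm held in 12 of 12 other settings, with log2 changes from 1.0 to 2.08. In TPM the cellulose mice were at 2.49, 3.91 and 5.35, and they overlapped a chow mouse at 3.11 and a 500 ppm mouse at 2.81.

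Gdf15, a circulating stress cytokine that lowers food intake, varied widely between mice on cellulose. On 2% iron with cellulose it was at 38.2, 9.17 and 12.6 CPM, and on 50 ppm at 5.52, 5.99 and 8.12 CPM. The groups did not overlap (log2 change 1.61 ± 0.52, edgeR adjusted p = 0.0335), but replicate 1 on cellulose stood far above the others. Without that mouse the log2 change was 0.73 and the adjusted p 0.265, and the call was also lost without any 1 of the 3 mice on 50 ppm (log2 change 1.5 to 1.79, adjusted p 0.105, 0.0910 and 0.0560). In all, 7 of 13 other settings ended the call. On 2% iron Gdf15 was at 9.36, 5.16 and 3.16 CPM, which overlaps 50 ppm. On 500 ppm it was at 2.75, 3.44 and 3.02 CPM, the lowest of the 5 diets and below every 50 ppm mouse, with a log2 change of -1.08 ± 0.57 that did not pass (p = 0.0811 before adjustment, edgeR).

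Trib3, a pseudokinase that is induced by ATF4 and CHOP and in turn restrains ATF4, was at 18.8, 26.4 and 10.7 CPM on 2% iron with cellulose. On 50 ppm it was at 10.3, 6.96 and 9.36 CPM, so the lowest cellulose mouse lay just above the highest 50 ppm mouse. In TPM the groups overlapped, with the lowest cellulose mouse at 6.36 and the highest 50 ppm mouse at 6.42. The log2 change was 1.07 ± 0.36 (edgeR adjusted p = 0.0366). It fell to 0.73 without replicate 2 on cellulose (adjusted p = 0.169) and to 1.05 without replicate 1 (0.0802), and it was also lost without any 1 of the 3 mice on 50 ppm (log2 change 0.92 to 1.18, adjusted p 0.0619 to 0.118). On 2% iron Trib3 was at 8.62, 9.07 and 9.64 CPM, inside the 50 ppm range (log2 change 0.04 ± 0.37).

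Sesn2, a leucine-binding regulator of mTORC1 that both ATF4 and p53 induce, was the only one of the 10 to pass the test on both iron-rich diets. It was at 16.1, 15.2 and 14.2 CPM on 2% iron, at 18.5, 15.7 and 18.6 CPM with cellulose, and at 9.79, 10.2 and 11.8 CPM on 50 ppm. All 6 iron-rich mice were above all 9 mice on 50 ppm, 500 ppm and chow, whose highest value was 12.4 CPM on 500 ppm. The log2 change against 50 ppm was 0.51 ± 0.16 on 2% iron (edgeR adjusted p = 0.0473) and 0.73 ± 0.16 with cellulose (edgeR adjusted p = 0.00460). Against 500 ppm it was 0.58 ± 0.16 on 2% iron (edgeR adjusted p = 0.0319) and against chow 0.84 ± 0.16 (edgeR adjusted p = 0.00277). The sizes were stable, at 0.45 to 0.59 over 13 other settings for 2% iron against 50 ppm, but the call was not. It was lost without any 1 of the 6 mice, with adjusted p of 0.140, 0.0970 and 0.0777 without replicates 1, 2 and 3 of 2% iron and of 0.163, 0.119 and 0.0546 without those of 50 ppm. The call against 500 ppm was likewise lost without any 1 of the mice on 2% iron (adjusted p 0.0609 to 0.107) and without replicate 1 (0.116) or 2 (0.0812) of 500 ppm. The calls with cellulose and against chow held in 13 of 13 settings each. Of 8 other p53 targets, 5 rose on 2% iron and 3 with cellulose against 50 ppm, and 0 fell. With 1 mouse left out, 2 to 4 rose on 2% iron and 2 to 3 with cellulose. Over all genes, 15.7% changed on 2% iron and 15.4% rose with cellulose. The part of p53 in the level of Sesn2 was not tested.

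Atf4, the central factor of the response, rose slightly on 2% iron with cellulose, at 86.2, 69.2 and 70.8 CPM against 52.1, 57.6 and 56.5 CPM on 50 ppm (log2 change 0.44 ± 0.11, edgeR adjusted p = 0.00884). Without replicate 1 on cellulose the log2 change was 0.33 and the adjusted p 0.0501. On 2% iron it was at 64.9, 61.2 and 56.1 CPM, which overlaps 50 ppm (log2 change 0.13 ± 0.11). On 500 ppm it was at 47.2, 60.6 and 51.4 CPM and on chow at 56.2, 58.2 and 65.4 CPM, both overlapping 50 ppm.

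The remaining 4 genes did not pass the test on any diet. Ddit3, which encodes the pro-apoptotic factor CHOP, was at 5.31, 4.41 and 5.47 CPM with cellulose, 4.14, 4.53 and 4.27 CPM on 2% iron and 4.65, 4.25 and 3.73 CPM on 50 ppm. These groups overlapped, and the log2 change with cellulose was 0.27 ± 0.30. Chac1, which breaks down glutathione, was at 4.51, 3.00 and 2.70 CPM with cellulose, 5.47, 3.82 and 2.22 CPM on 2% iron and 2.52, 1.45 and 2.15 CPM on 50 ppm. Its log2 changes of 0.73 ± 0.49 and 0.91 ± 0.48 were both less than 2 standard errors from 0.

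Atf5, a relative of ATF4 that is abundant in liver, pointed the other way. It was at 327.5, 325 and 350 CPM with cellulose and at 468, 463 and 463 CPM on 50 ppm, with no overlap, and the log2 change was -0.48 ± 0.18 (edgeR adjusted p = 0.0647). It passed with the 2 groups fitted alone (adjusted p = 0.00714) and with DESeq2 (0.0423). On 2% iron it was at 457, 418 and 313 CPM and on 500 ppm at 691, 417.03 and 450 CPM. Fgf21, a fasting and stress hormone that PPARA also induces in liver, was at 8.21, 3.53 and 7.93 CPM with cellulose, 4.97, 3.82 and 1.28 CPM on 2% iron and 6.30, 11.1 and 6.30 CPM on 50 ppm. Every mouse on 2% iron was below every mouse on 50 ppm, with a log2 change of -1.23 ± 0.62 that did not pass (edgeR adjusted p = 0.199). The median log2 change of 10 PPARA targets was -0.71 on 2% iron and -0.48 with cellulose, and their part in the level of Fgf21 was not tested.

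**Figure D2:**
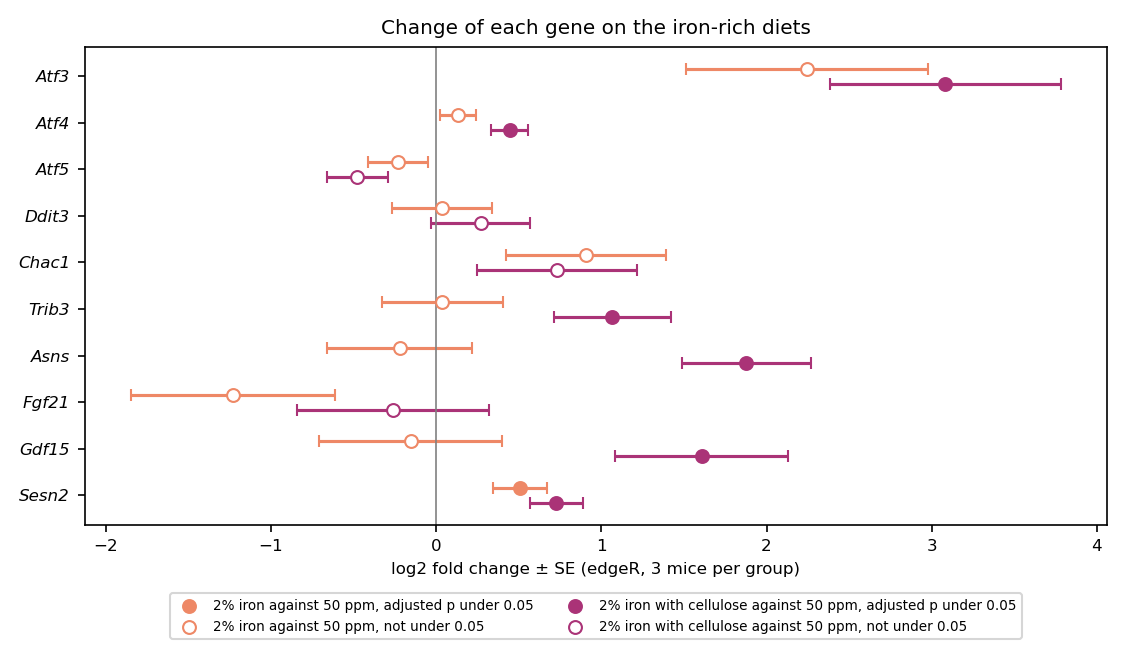
Log2 fold change ± SE of each gene on 2% iron and on 2% iron with cellulose, both against 50 ppm (edgeR, 3 mice per group), with filled points where the adjusted p was under 0.05. With cellulose 6 points are filled and all lie to the right of 0, from 0.44 for Atf4 to 3.08 for Atf3, and without it Sesn2 at 0.51 is the filled point.

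The difference between the 2 iron-rich diets was also tested directly. None of the 10 genes passed (0 of 10, beside 0.0811% of all genes, edgeR), although 4 were under an unadjusted p of 0.05. These were Asns (log2 change 2.10 ± 0.39, edgeR adjusted p = 0.0578), Gdf15 (1.76 ± 0.53, 0.194), Trib3 (1.03 ± 0.35, 0.252) and Atf4 (0.31 ± 0.11, 0.259). DESeq2 called 2 of the 10, but its share of all genes is not given here, and the edgeR share cannot stand in for it. In 4 of the 10, Atf3, Atf4, Trib3 and Asns, every cellulose mouse was above every mouse on 2% iron, and 8.08% of all genes were higher without overlap in this comparison. Against 50 ppm the same count in CPM was 7 of 10 with cellulose, beside 22.4% of all genes, and Trib3, 1 of the 7, overlapped in TPM. Summed neutrophil markers were at 13.5 to 59.0 CPM with cellulose, 9.60 to 17.9 CPM on 2% iron and 2.91 to 4.89 CPM on 50 ppm, and summed immediate early genes at 303 to 520, 243 to 311 and 191 to 218 CPM. Both overlapped between the iron-rich diets and lay above 50 ppm. Their part in the levels of Atf3 and Gdf15 was not tested.

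At the lower iron levels little moved. Between 500 ppm and 50 ppm none of the 10 genes passed, and none of all genes did (0% by edgeR and 0 by DESeq2, with 428 genes and 0 of the 10 at an unadjusted p under 0.05). Between chow and 50 ppm none of the 10 passed, beside 0.391% of all genes, and 2 were under an unadjusted p of 0.05 by edgeR. These were Asns, higher on chow (log2 change 1.08 ± 0.40), and Fgf21, lower on chow (-1.49 ± 0.63), at 2.16, 0.559 and 5.38 CPM. DESeq2 also called 0 of the 10 there. Against 500 ppm, 2% iron changed Sesn2 alone (1 of 10, beside 11.3% of all genes), and against chow it changed 2 of 10, Sesn2 upward and Asns downward, beside 22.8% of all genes.

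The wider pathway was read in lists of genes with known roles, and more of them passed with cellulose than without, as did more of all genes. Against 50 ppm, 15.4% of all genes rose with cellulose, and 15.7% of all genes changed in either direction on 2% iron. The direct test between the iron-rich diets called 0 genes in each of the pathway lists described here (edgeR, beside 0.0811% of all genes), with median differences of 0.69 for serine and one-carbon enzymes, 0.33 for transporters, 0.17 for tRNA synthetases and 0.36 for other ATF4 and CHOP targets. Of 8 serine and one-carbon enzymes, which supply amino acid and folate metabolism and are ATF4 targets, 6 rose with cellulose against 50 ppm and 1 on 2% iron. The latter was Mthfd2, a mitochondrial folate enzyme, at 1.90 ± 0.859 CPM on 2% iron and 3.45 ± 0.705 CPM with cellulose against 0.4928 ± 0.437 CPM on 50 ppm (log2 changes 1.88 and 2.73). Psat1 of the serine pathway, named after its values were seen, was at 5.15 ± 2.60 CPM with cellulose and 0.576 ± 0.0892 CPM on 50 ppm (log2 change 3.13 ± 0.52, edgeR adjusted p = 0.000862). Leaving out 1 mouse at a time gave 4 to 6 of the 8, with 4 without replicate 3 on cellulose or replicate 1 of 50 ppm. On 2% iron no enzyme of this list fell, and the count of 1 of 8 is near the 15.7% of all genes that changed in either direction. That count was 0 without replicate 2 of 2% iron or replicate 1 or 2 of 50 ppm, so the call of Mthfd2 there was lost.

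Of 9 tested amino acid transporters, 5 rose with cellulose and 2 on 2% iron, and none fell. Slc1a4, which carries serine and alanine, was at 30.8 ± 11.2 CPM with cellulose and 23.7 ± 5.17 CPM on 2% iron against 3.58 ± 1.63 CPM on 50 ppm, so it rose on both diets (log2 changes 3.12 and 2.74). Slc3a2, the heavy chain that leucine transporters share, also rose on both (0.62 and 0.53). Of 12 aminoacyl-tRNA synthetases, 8 rose with cellulose and 2 on 2% iron (Sars by a log2 change of 0.33 and Yars by 0.26), and the largest change with cellulose was 0.57, for Gars. Of 10 tested other ATF4 and CHOP targets, 6 rose with cellulose and 2 on 2% iron, where the 2 were Ero1l (0.72) and Vegfa (0.65), both also responsive to hypoxia. Leaving out 1 mouse at a time gave 3 to 4 transporters, 5 to 7 synthetases and 4 to 8 other targets with cellulose, and 2 transporters, 0 to 1 synthetases and 0 to 2 other targets on 2% iron. No gene of these lists fell on 2% iron, so the counts hold for either direction and are near the 15.7% of all genes that changed. The share of all genes that rose alone on 2% iron is not given here. No synthetase passed there without replicate 1 or 2 of 2% iron or replicate 1 or 2 of 50 ppm, and no other target without replicate 1 or 3 of 2% iron or replicate 1 or 2 of 50 ppm. With cellulose the fewest were 3 transporters without replicate 2 of 50 ppm, 5 synthetases without replicate 1 on cellulose, or replicate 1 or 3 of 50 ppm, and 4 other targets without replicate 2 on cellulose.

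Other lists of the pathway did not move one way. Of 6 other amino acid enzymes linked to ATF4, 1 rose with cellulose (Aldh18a1 of proline synthesis, log2 change 1.69) and 2 fell (Cth, -0.75, and Cbs, -0.43, both of the transsulfuration pathway), with a median of -0.09, and 0 passed on 2% iron. The fall of Cth and Cbs was lost without replicate 2 on cellulose or replicate 2 of 50 ppm, and 1 of the 6 fell without replicate 3 on cellulose. Of 7 tested partners of ATF4 and other bZIP factors, 1 rose on each diet, Jdp2 (1.19 with cellulose and 1.07 on 2% iron). Aldh18a1, Cth and Cbs are named after their values were seen.

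Upstream, 3 of 4 eIF2 kinases rose with cellulose: Eif2ak4 (log2 change 0.69 ± 0.11), Eif2ak3 (0.60 ± 0.18) and Eif2ak2 (0.44 ± 0.12). On 2% iron 1 of 4 rose, Eif2ak2 (0.59 ± 0.12), and without replicate 3 on cellulose 1 of the 4 passed there. None of the 8 subunits of eIF2 and eIF2B and neither phosphatase subunit passed on either diet. The endoplasmic reticulum chaperone arm, which ATF6 and XBP1 drive when protein misfolds there, did not rise as a list. Of 18 genes, 1 rose and 6 fell with cellulose, beside 15.4% and 14.3% of all genes, and 0 changed on 2% iron. The median log2 change was -0.22 with cellulose and -0.09 on 2% iron. The 6 included Sdf2l1 (log2 change -1.29), Pdia6 (-0.63) and Calr (-0.51), named after their values were seen, and 1 to 7 fell with 1 mouse left out, with 1 without replicate 1 on cellulose or replicate 1 of 50 ppm.

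**Figure D3:**
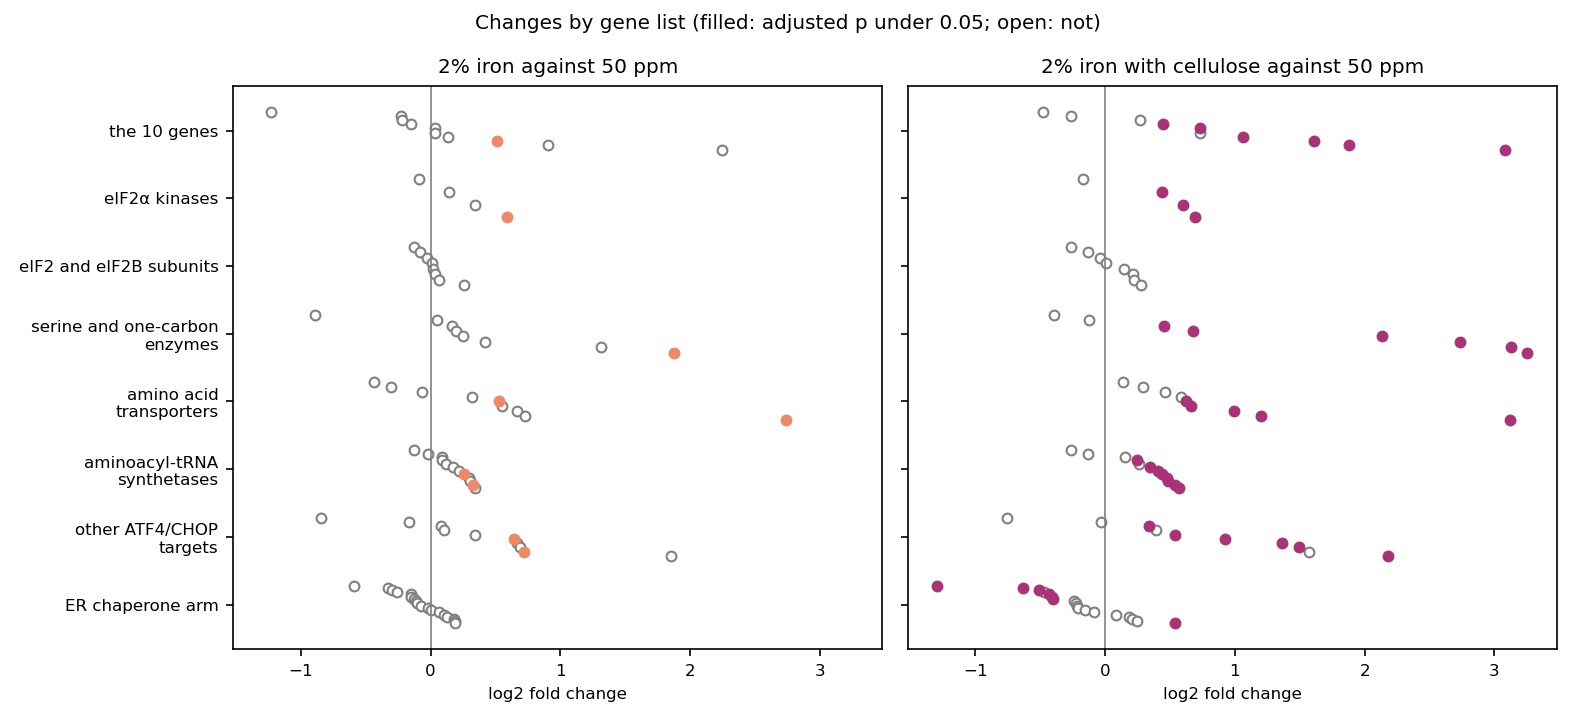
Log2 fold change of each gene of the 10 and of 7 lists of the pathway, on 2% iron (left) and on 2% iron with cellulose (right) against 50 ppm, with 1 point per gene and filled points where the adjusted p was under 0.05. In the right panel 6 of 8 serine and one-carbon enzymes are filled with changes up to 3.26, while 6 of the 7 filled chaperone genes lie left of 0.

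Across the 114 strains on 2% iron the 10 genes differed widely, and the levels are from tables normalised apart from the diet study. Asns had the widest range, from 0.188 CPM in BXA13/PgnJ to 57.9 CPM in BTBR T<+> tf/J, with a median of 2.01 CPM and quartiles of 0.872 and 6.27 CPM. C57BL/6J was at 2.36 CPM, DBA/2J at 0.664 and A/J at 0.348 CPM. The SD of log2 CPM between strains was 1.67, which is 3.37 times the SD of 0.50 between mice of one diet, and this ratio had a median of 1.66 over 13302 genes. In 129X1/SvJ, the only strain with 2 mice, Asns was at 28.2 and 23.2 CPM, both more than 10 times the median of the strains.

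Sesn2 followed with a ratio of 2.58, from 3.51 CPM in BXD70/RwwJ to 42.5 CPM in NZB/BlNJ around a median of 12.6 CPM. Atf5 had a ratio of 2.09 and ran from 149 CPM in NZB/BlNJ to 897 CPM in AXB5/PgnJ (median 389 CPM). Atf4, with a ratio of 1.98, lay in a narrow range from 42.6 CPM in BXA8/PgnJ to 116 CPM in NZB/BlNJ (median 61 CPM), and its SD between strains of 0.27 in log2 was larger than that of 36.4% of genes. These 4 genes varied between strains more than the median gene did relative to mice of one diet.

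The other 6 were below the median ratio, at 1.13 for Ddit3, 1.28 for Atf3, 1.31 for Chac1, 1.35 for Fgf21, 1.44 for Trib3 and 1.55 for Gdf15. Mice of one diet already differed in them, so with 1 mouse per strain a level cannot be assigned to the strain and not to the mouse. Fgf21 ran from 0 counts in NZB/BlNJ, which allows up to 0.246 CPM (3 counts), to 41.5 CPM in BXD48/RwwJ (median 4.8 CPM). Trib3 ran from 2.29 CPM in AXB10/PgnJ to 62.8 CPM in BXH2/TyJ (median 11.3), and Gdf15 from 0.640 CPM in CBA/J to 39.8 CPM in BXH2/TyJ (median 4.94). Atf3 ran from 0.352 CPM in C57BLKS/J to 23.4 CPM in BTBR T<+> tf/J (median 1.98), Ddit3 from 1.58 CPM in BXD85/RwwJ to 15.6 CPM in BXH2/TyJ (median 4.29), and Chac1 from 0.536 CPM in AKR/J to 24.7 CPM in NON/ShiLtJ (median 3.72).

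High levels of several genes met in the same few mice. BXH2/TyJ was among the 5 highest strains for 7 of the 10 genes (Atf3, Atf4, Ddit3, Trib3, Asns, Gdf15 and Sesn2), BTBR T<+> tf/J for 5 and NZB/BlNJ for 5. BXH2/TyJ, a strain known to carry a mutation in Irf8, ranked 2nd of 114 for summed neutrophil markers (106 CPM, panel median 11), 97th for macrophage markers and 113th for lymphocyte markers. BTBR T<+> tf/J had the highest erythroid markers (2428 CPM, median 179) and ranked 113th for hepatocyte markers, and NZB/BlNJ had the lowest summed PPARA targets (1316 CPM, median 6223) together with 0 counts of Fgf21 and the lowest Atf5. Some of these traits were shared. Neutrophil markers ranked 7th in BTBR T<+> tf/J and 12th in NZB/BlNJ, and erythroid markers 11th in BXH2/TyJ and 6th in NZB/BlNJ. PPARA targets ranked 107th in BXH2/TyJ and 113th in BTBR T<+> tf/J. Macrophage and lymphocyte markers, low in BXH2/TyJ, ranked 20th and 44th in BTBR T<+> tf/J and 29th and 64th in NZB/BlNJ. Each is a single mouse, and the part of these cells in the 10 genes was not tested.

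**Figure D4:**
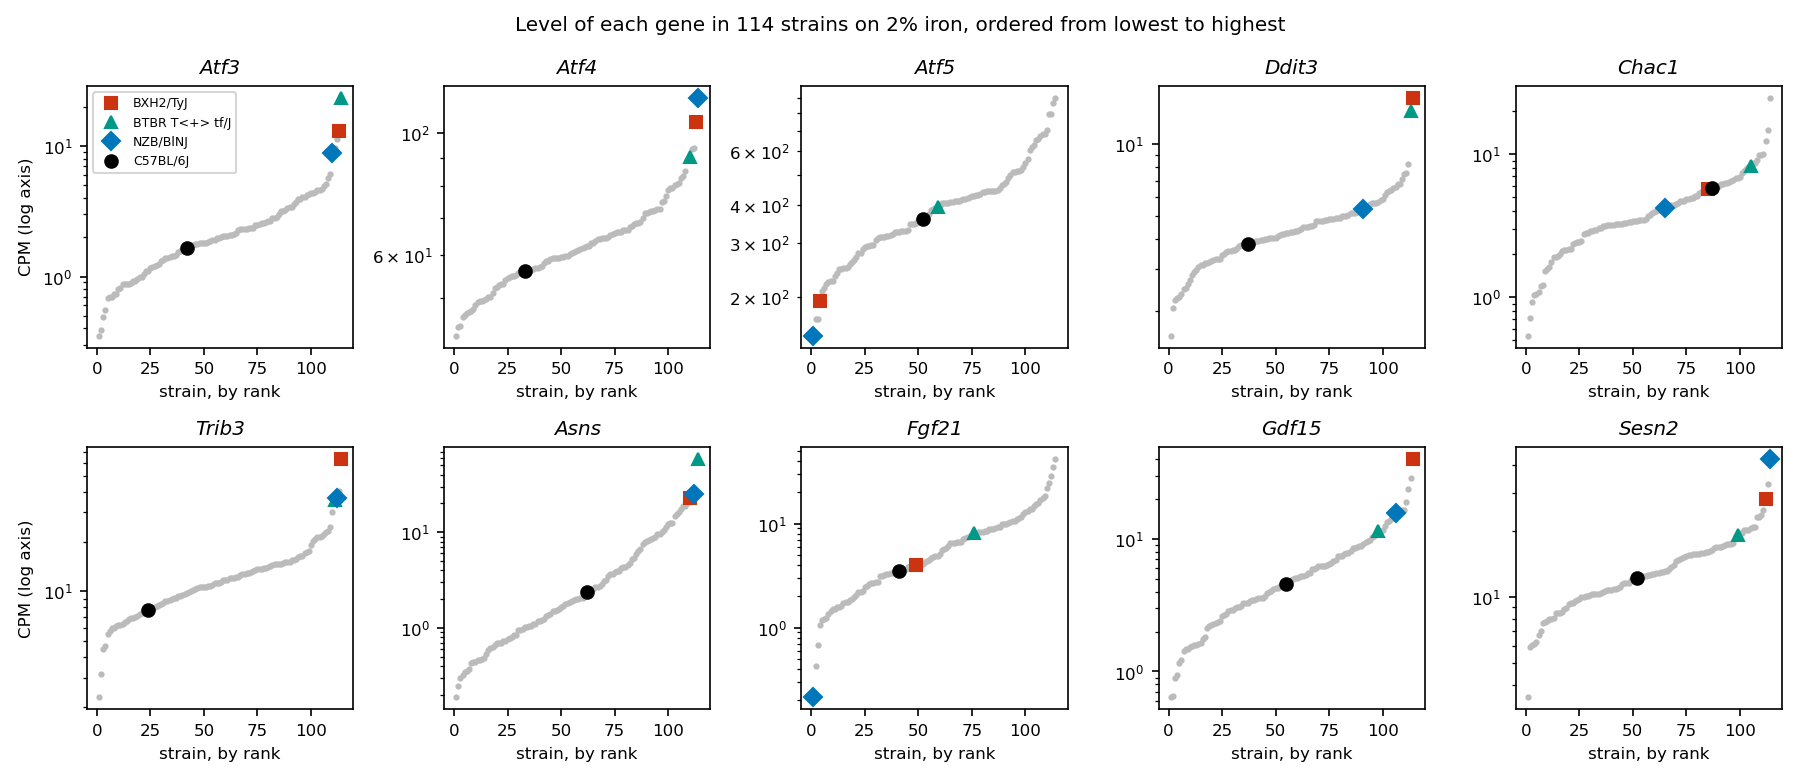
Level in CPM (log axes) of each gene in the 114 strains on 2% iron, ordered from lowest to highest, with BXH2/TyJ, BTBR T<+> tf/J, NZB/BlNJ and C57BL/6J marked and the count of 0 of Fgf21 in NZB/BlNJ drawn below the lowest value above 0. Asns climbs from 0.188 to 57.9 CPM over the strains, whereas Atf4 climbs from 42.6 to 116 CPM.

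Between the recombinant families, 1 of the 10 genes differed, a count near the 11.6% of all genes that did. Asns was higher in the 56 BXD than in the 20 AXB/BXA strains, with medians of 1.98 and 1.13 CPM (log2 change 1.35 ± 0.42, edgeR adjusted p = 0.0229). The log2 change compares fitted means and not the medians, and the SD of log2 CPM between BXD strains was 1.55. On the log2(TPM + 1) scale the difference was 0.59 and did not pass (limma adjusted p = 0.126). Chac1 was next, at medians of 4.03 and 2.92 CPM (log2 change 0.49 ± 0.20, adjusted p = 0.112).

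Whether the 10 genes go together from strain to strain was read from all 45 pairs, over 114 strains, with strains of a family sharing parents. In 29 pairs the levels were related (permutation p adjusted over 45 pairs under 0.05), and all 29 were positive. The weakest of these had r = 0.21, a value that 17.4% of all pairs of one of the 10 with any other gene reached, so moderate positive r was common in this panel. The closest pairs were Atf3 with Gdf15 (r = 0.55, rho = 0.53), Atf5 with Fgf21 (r = 0.54, rho = 0.44), Atf4 with Asns (r = 0.53, rho = 0.48) and Atf4 with Trib3 (r = 0.47, rho = 0.37). Each of these 4 had a permutation p of 1e-05, the smallest that 100000 permutations can give, and an adjusted p of 7.5e-05. Without the 2 strains farthest from the median of the gene named first, r was 0.52, 0.49, 0.49 and 0.38.

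The 4 closest pairs differed in how they stood among all genes. For Atf5, 0.0422% of other genes had an r as high as that of Fgf21, and for Atf4, 0.612% had one as high as that of Asns and 1.73% one as high as that of Trib3. For Atf3, 1.02% of other genes reached the r of Gdf15, whereas 7.14% reached the r of 0.40 with Sesn2. Atf4 was related to all 9 others, and 22.5% of all other genes reached the weakest related r of 0.21 with it. The r of Fgf21, Chac1 and Atf5 with Atf4 was reached by 22.5%, 21.3% and 20.9% of other genes. By rank, Atf4 with Chac1 did not pass (rho = 0.15, adjusted permutation p = 0.155). Atf5 was related to 2, Fgf21 and Atf4, and its r with Atf3 (-0.11), Sesn2 (-0.12) and Gdf15 (-0.06) was not positive. Chac1 was related to 3, Asns (r = 0.34), Sesn2 (0.25) and Atf4 (0.22), and its r with Ddit3 was -0.05.

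The families differ in size, so their counts cannot be set against each other, and no difference between them was tested. In the 56 BXD strains alone 11 pairs were related, in the 31 other inbred strains 16, and in the 20 AXB/BXA strains 1, Ddit3 with Gdf15 (r = 0.68). Atf3 with Gdf15 had an r of 0.55 in BXD, 0.57 in AXB/BXA (which did not pass, adjusted permutation p = 0.138) and 0.47 in the other inbred strains. Atf4 with Asns had 0.31, 0.42 and 0.64, and Atf4 with Trib3 0.22, 0.24 and 0.65. Without BXH2/TyJ, NZB/BlNJ and BTBR T<+> tf/J, chosen after the values were seen, 28 pairs were related, of which 25 were among the 29. Without BXD65/RwwJ, whose Y-linked genes go against its label, all 29 were still related. With lines of the same number averaged (AXB19/PgnJ, AXB19a/PgnJ and AXB19b/PgnJ, and BXD48/RwwJ and BXD48a/RwwJ), 26 of the 29 were.

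**Figure D5:**
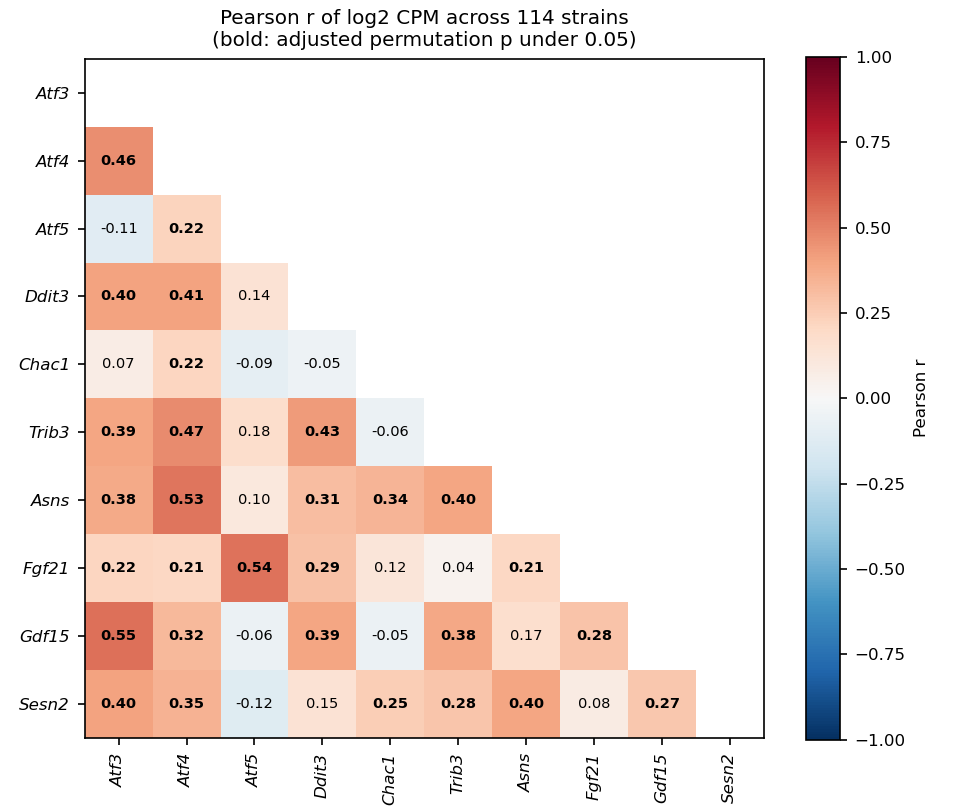
Pearson r of log2 CPM between each pair of the 10 genes across 114 strains, with colour from -1 (blue) to 1 (red) and bold figures where the adjusted permutation p was under 0.05. Atf4 has bold values with all 9 other genes, while the row and column of Atf5 hold 2, at 0.54 with Fgf21 and 0.22 with Atf4.

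The levels were also related to 6 genes that report other states of the iron-loaded liver: Bmp6 and Hamp (iron sensing), Hmox1 (heme breakdown), Cdkn1a (p53), Lcn2 (acute phase) and Cd68 (macrophages). Of 60 relations over 114 strains, 27 passed (permutation p adjusted over 60), 25 positive and 2 negative, and 20.7% of all pairs of one of the 6 with any other gene reached the smallest positive r of 0.21. Atf3 went with Cd68 (r = 0.57, rho = 0.56) and Hmox1 (r = 0.53, rho = 0.52), and Gdf15 with Cd68 (r = 0.51, rho = 0.54). Sesn2 went with Cdkn1a (r = 0.57, rho = 0.53), with r of 0.55 in BXD, 0.54 in AXB/BXA and 0.60 in the other inbred strains. These 4 had a permutation p of 1e-05 (adjusted 4.6e-05), and r of 0.54, 0.58, 0.52 and 0.53 without the 2 strains farthest from the median of the reporter gene. Chac1 went with Lcn2 (r = 0.45, rho = 0.42) and not detectably with Cd68 (r = 0.04). In log2 CPM no relation of Atf5 or Trib3 passed. On the log2(TPM + 1) scale Trib3 passed with Cd68 (r = 0.27), Hmox1 (0.27), Cdkn1a (0.21) and Bmp6 (0.26), and Atf5 with Bmp6 (0.21).

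The result depended on the scale for the iron sensors and for some relations of the other readout genes. Atf4 with Cd68, for example, had r = 0.14 in log2 CPM, which did not pass, and 0.38 in log2(TPM + 1), which did. In log2 CPM, Bmp6 was related to 1 of the 10 genes, Gdf15 (r = 0.31, rho = 0.32, permutation p = 0.00058, adjusted 0.00183, and r = 0.37 without the 2 strains farthest from its median). In log2(TPM + 1) it was related to 7 of the 10: Gdf15 (r = 0.36), Atf4 (0.35), Trib3 (0.26), Ddit3 (0.26), Atf3 (0.24), Fgf21 (0.23) and Atf5 (0.21), with permutation p adjusted over 60 relations from 0.00027 to 0.0435. The share of all genes with such an r was taken in log2 CPM alone, where 13.1% reached 0.21 with Bmp6. No share in TPM stands beside the 7, so that count cannot be read as particular to these genes. Hamp, the hepcidin gene, was lower where Ddit3 was higher (r = -0.32, rho = -0.32, permutation p = 0.00071, adjusted 0.00213, and r = -0.39 without 2 strains), but r was -0.12 in BXD alone and -0.15 in TPM. The r of Hamp with Atf3 (-0.22) was -0.06 in TPM, and its rho was -0.09. No relation with any of the 6 passed in the AXB/BXA strains alone, and 10 passed in BXD and 15 in the other inbred strains.

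The genes whose levels were most like each of the 10 over 114 strains are given as a description. For Asns they were Psat1 (r = 0.84), Mthfd2 (0.78) and the glycyl-tRNA synthetase gene Gars (0.76), all from the lists of the pathway. The strain 129X1/SvJ, named after its values were seen, stood off that relation: it ranked 2nd of 114 for Asns and 82nd for Psat1, which was at 0.31 in log2 CPM beside a median of 0.78 and 4.58 in BTBR T<+> tf/J. Gars was also closest to Trib3 (0.61). For Atf3 they were Klf6 (0.80), Anxa2 (0.72) and Ccdc120 (0.71), and for Gdf15 Klf6 (0.66), Tmem65 (0.63) and Jun (0.62), so the same early-response gene led both. For Sesn2 they were Chic2 (0.71), Trp53inp1 (0.70), a p53 target, and Igfbp1 (0.70). For Chac1 they were Stat3 (0.61), Il1r1 (0.55) and Itih3 (0.53), which belong to the cytokine and acute phase response.

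For Fgf21 the closest was Inhbe (0.58), which encodes a secreted factor of hepatocytes, followed by Fut1 (0.56) and Abcb4 (0.54). For Atf5 it was Nr2f6 (0.61), for Atf4 Cul1 (0.66) and for Ddit3 Sqstm1 (0.52). The value for Ddit3 and Sqstm1 was 0.33 without BXH2/TyJ, NZB/BlNJ and BTBR T<+> tf/J, while that for Asns and Psat1 was 0.82.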

How the data were processed

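Liver RNA of 130 mice labelled male was sequenced from a stranded mRNA kit, per the labels' protocols. The submitters' processing notes name kallisto 0.46 and the build mm10, and strand use is not given in the sources used here. The authors deposited expected counts, not normalized, and TPM, scaled within each library, per the file headers. Of the columns, 0 were left without a sample. Expected counts were rounded to whole numbers. The design had assumed counts, and the same test was kept. Symbols came from GENCODE M21 and matched 34924 of 35274 and 35691 of 35711 identifiers.

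Diet groups were fitted together with edgeR 4.0.16 (R 4.3.3) using TMM factors, filterByExpr (13560 genes), the quasi-likelihood test and Benjamini-Hochberg adjustment over all genes, two-sided, and a gene passed at an adjusted p under 0.05. BXD and AXB/BXA strains were fitted alone. The SE is the absolute log2 change divided by the root of the F value, an approximation. CPM was scaled by TMM factors, and relations between strains used log2 CPM with a prior count of 2 and 100000 permutations in scipy 1.17.1, numpy 2.4.6 and pandas 2.3.3 (Python 3.11.15). None of the 10 genes and 6 readout genes split the strains into clusters by a mixture model (scikit-learn 1.9.0). DESeq2 1.42.0 and limma 3.58.1 on log2(TPM + 1) and log2(TPM + 0.1) served as alternatives, with RLE factors, other filters, the compared groups alone and each mouse left out. The test was first tested on simulated data. Limits for a count of 0 take 3 counts and cover counting error only, since reads carry no molecular identifiers.

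The 10 genes and all lists were chosen with earlier results of these data known. Named were the 10, up to 4 called genes per list for 2% iron against 50 ppm (or the gene with the smallest adjusted p), the 3 genes most like each of the 10, and for each the lowest and highest strain with C57BL/6J, DBA/2J and A/J. Names outside this rule are said to be chosen later or are the genes a count of 6 or fewer refers to. Some genes of the lists are not reported here.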

Additional observations from a re-analysis of the deposited data

Results flagged for a closer look

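In the BXH family, with 4 strains, a single strain stood far from the other 3 for 5 of the 10 genes, by Dixon's gap test at the 95% level, which flags about 1 in 20 groups by chance. BXH2/TyJ was at 13 CPM of Atf3 where the others were at 0.700 to 2.10 CPM, at 15.6 CPM of Ddit3 (others 2.84 to 4.76), at 62.8 CPM of Trib3 (others 12.5 to 17.3) and at 39.8 CPM of Gdf15 (others 2.92 to 8.47). For Fgf21 the strain was BXH14/TyJ, at 12.2 CPM (others 2.77 to 4.39), just past the test's threshold. Each strain is 1 mouse, and a difference of the strain and one of the mouse cannot be told apart.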

How the results depend on the processing

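Against 50 ppm, 2% iron changed 0 of the 10 genes with RLE factors, without a filter and by limma on log2(TPM + 1) and log2(TPM + 0.1), and 2 with the compared groups alone and with DESeq2, beside 1 as reported. With each of the 6 mice left out in turn it changed 0 to 0. With cellulose, leaving out 1 mouse gave 3 to 6 genes, the 3 without replicate 1 on cellulose, and the other settings gave 4 to 7. Against 500 ppm the count was 0 with the compared groups alone and in both limma fits and 0 to 1 with a mouse left out. Against chow it was 1 with at least 10 counts in every library and in both limma fits, and 1 to 3 with a mouse left out. Between the iron-rich diets it was 1 without a filter, 2 with DESeq2 (whose share of all genes is not given here) and 0 to 1 with a mouse left out. Leaving out a mouse gave 0 to 0 for 500 ppm and for chow against 50 ppm. Between families it was 0 with at least 10 counts in every library and by limma. Related pairs numbered 11, 1 and 16 in BXD, AXB/BXA and other inbred strains alone, and 26 to 33 elsewhere; readout relations numbered 10, 0 and 15, and 24 to 37 elsewhere. Smaller families hold fewer strains; otherwise the cause was not tested. The change of Fgf21 with cellulose (-0.26) ran from -0.46 to 0.061 with a mouse left out, and reversed to 0.030 without replicate 2 on cellulose and to 0.061 without replicate 2 on 50 ppm. No paired analysis was possible because replicate numbers were given in accession order and pair nothing. Without replicate 2 of 500 ppm, which has the deepest library and was chosen after seeing the data, 6 rose and 1 fell with cellulose, and 1 rose on 2% iron. Without the BXD65 library, whose Y-linked genes sum to 3.93 CPM against 120 CPM or more in all others, 29 pairs were related. For Atf3 at 1 to 5 counts on 50 ppm, depth limits the size of its change.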
